A study of Sorghum bicolor with 14 samples.

Results

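In CSV24SS, a sweet variety of Sorghum bicolor, gene levels in the stem at soft dough (SD) were set against those at the milky stage (MS), which are successive stages of grain filling. The comparison takes in 4 of the 14 samples of the series, 2 at each stage. All are middle internodes of CSV24SS, and no mutant, transgene or other variety is involved. MS and SD plants, like those at floral initiation (FI) and booting (B), came from a soil bed that had received nitrogen fertilizer and was watered regularly. The other 3 groups grew as single plants in pots, lost their water supply from the flag leaf stage and were harvested at booting with about 13% (D1), 7% (D2) or 2% (D3) soil moisture. The labels do not say how many plants made up a sample or at what time of day it was taken.

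During grain filling a sweet sorghum stem stores sucrose in the vacuoles of its parenchyma, and the panicle draws on the same carbon. Sucrose reaches the stem in the phloem, is cleaved by sucrose synthases and invertases or remade by sucrose phosphate synthases, and is loaded into the vacuole by tonoplast carriers. The stem wall is a second destination for carbon, through cellulose synthases and the phenylpropanoid pathway that ends in lignin.

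The deposited values are FPKM (fragment counts scaled to gene length and library size), with 1 value per gene and stage in which both samples were combined. No spread between samples could therefore be given and no test was run, so higher and lower describe a pair of values. Read counts were not given, and the depth behind each value is unknown. Of 32752 named rows of the development table, 18338 reached 1 FPKM in at least 1 of the 4 stages and are called measured. Changes are differences in log2(FPKM + 1), SD minus MS. On this scale differences between low values come out smaller than their ratios. A gene was called higher or lower at a difference of at least 1, which is 2-fold, while folds given for single genes are plain ratios of FPKM.

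All 4 listed cellulose synthase genes were higher at SD. All 3 listed genes of dhurrin synthesis were higher too. The evening clock gene TOC1, the lignin gene CCoAOMT and the dry stalk NAC gene were also higher. The sucrose synthase Sobic.001G378300, vacuolar invertase, the tonoplast sugar transporter TST2, the morning clock gene LHY, the stem height gene Dw3 and the Rubisco small subunit gene were lower. TST2 was added to its list after its values were seen. Over all 18338 measured genes 1186 (6.47%) were higher and 783 (4.27%) lower, together 10.7%. Differences of at least 4-fold were found for 153 higher and 89 lower genes, and of at least 8-fold for 20 and 16. The middle 50% of genes lay between -0.30 and 0.36 on the log2 scale, around a median of 0.02.

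**Figure D1:**
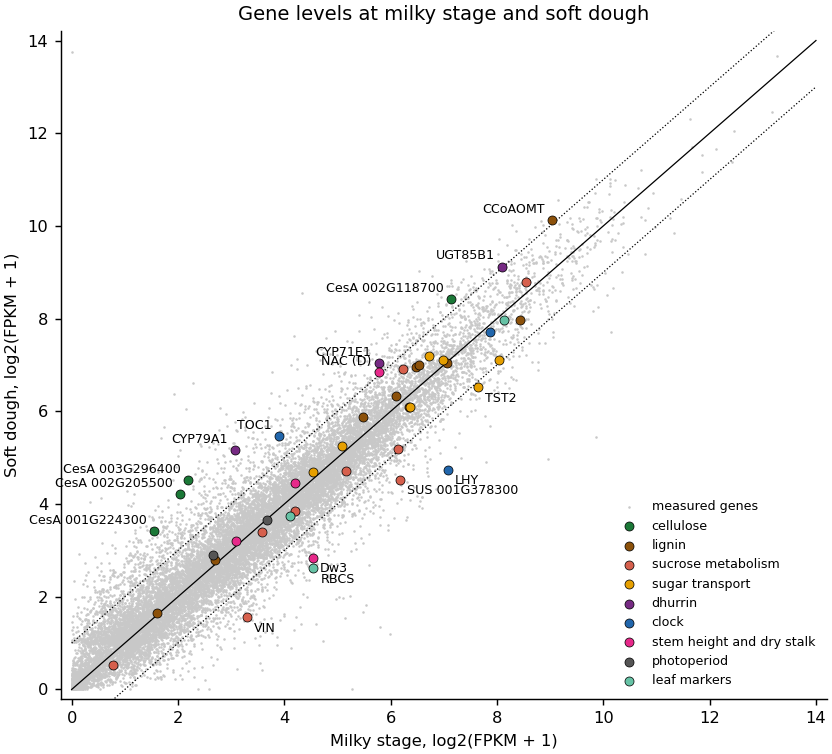
Levels at MS (horizontal) and SD (vertical) as log2(FPKM + 1), with 1 pooled value per gene and stage; grey points are the 18338 measured genes, coloured points the listed genes, and dotted lines mark 2-fold. The 4 cellulose synthase genes, the 3 dhurrin genes, TOC1, CCoAOMT and the dry stalk NAC gene lie above the upper line. LHY, VIN (vacuolar invertase), RBCS (Rubisco small subunit), Dw3, TST2 and the sucrose synthase Sobic.001G378300 lie below the lower line.

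The differing genes spanned all levels of expression. At least 1 FPKM was reached at SD but not at MS by 868 genes and at MS but not at SD by 493. Of the 1186 higher genes 214 started under 1 FPKM at MS, and of the 783 lower genes 95 ended under 1 FPKM at SD. The share of higher genes was 3.14% of the 1495 genes whose mean over the 4 stages was under 1 FPKM and 11.1% of the 1368 genes with a mean of 100 FPKM or more. The share of lower genes in the same classes was 0.669% and 6.07%. In the classes between, the share of higher genes ran from 5.52% to 7.88% with no steady rise, and that of lower genes from 1.82% to 5.48%. Adding 1 FPKM before taking logs by itself leaves little room for a call among genes averaging under 1 FPKM. Among the 100 most abundant genes of each stage 70 were shared, and these top 100 held 21.1% of the summed FPKM at MS and 21.4% at SD.

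The tissue label was checked against genes that mark other organs. The gamma kafirin gene Sobic.002G211700, a seed storage protein gene, was listed at 0 at all 4 stages. The C4 phosphoenolpyruvate carboxylase gene Sobic.010G160700, which fixes carbon in leaf mesophyll, stayed between 0.0556 and 0.155 FPKM. Rubisco small subunit gene Sobic.005G042000, a marker of photosynthetic cells, was at 35.3 FPKM at FI, 66.3 at B, 22.4 at MS and 5.11 at SD, a 4.38-fold difference between the last pair. It was the 1 of 3 measured leaf markers called, and lower, beside 4.27% lower of all measured genes. PPDK (Sobic.009G132900), which regenerates phosphoenolpyruvate in the C4 cycle, was at 16.2 and 12.5 FPKM. The row holding the NADP malic enzyme gene Sobic.003G036200, which also holds a second gene model and shares its locus, was at 279 and 249 FPKM. Levels summed over the 4 leaf markers were 317 FPKM at MS and 266 at SD, of which the NADP malic enzyme row alone made up 279 and 249 FPKM. In such bulk samples fewer cells of a type and less RNA per cell cannot be told apart.

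Cellulose synthases build the glucan chains of the wall. Sobic.001G224300, Sobic.002G205500 and Sobic.003G296400 are the secondary wall members, which work together in the thickened walls of vessels and fibres. At MS they stood at 1.91, 3.13 and 3.54 FPKM, and at SD at 9.73, 17.5 and 22.0 FPKM. The folds were thus close to each other, at 5.09, 5.58 and 6.22. All 3 were higher at SD than at MS, but each stayed below its level at FI, which was 30.3, 74.5 and 62.7 FPKM. At B they were at 12.9, 19.6 and 23.4 FPKM, near the SD values.

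Sobic.002G118700 (chromosome 2, 14784463 to 14790415, in the coordinates of the file), the fourth listed cellulose synthase gene, was far more abundant than the secondary wall genes and ran through the stages differently. Its level was 569.9 FPKM at FI, 82.1 at B, 139 at MS and 343 at SD. The lowest stage was B for this gene and MS for the other 3. The difference from MS to SD was 2.46-fold. All 4 listed genes were higher (6.47% of measured genes were), with a list median of 2.02 against 0.02 over all genes. This list, like the others, was chosen with earlier results of these data known. Sobic.002G205500 is on chromosome 2 (59706938 to 59711587), Sobic.001G224300 on chromosome 1 (21485581 to 21489706) and Sobic.003G296400 on chromosome 3 (62851273 to 62857742).

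The lignin list lay mostly within 2-fold. Of its 10 measured genes 1 was higher, 0 were lower and 9 lay within 2-fold, with 7 changes above 0 and a list median of 0.18. Over all genes 6.47% were higher and 4.27% lower, so a count of 1 in 10 is near the background. CCoAOMT (Sobic.010G052200, caffeoyl-CoA O-methyltransferase, which methylates the ring of the monolignol precursors) was at 524 FPKM at MS and 1115 at SD, 2.13-fold higher and at its highest of the 4 stages. When each gene was centred on the median change of genes of like locus length, its difference came to 0.94 and fell short of 2-fold. At the entry of the pathway, PAL (Sobic.004G220300, phenylalanine ammonia-lyase) was at 343 and 250.5 FPKM. A row of 3 further gene models, starting with Sobic.004G220400, has the same locus (chromosome 4, 57051382 to 57086639) and was at 192 and 277 FPKM. The rows on this locus thus differed in opposite directions, each within 2-fold, and how fragments were split between them is not given.

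The enzymes between PAL and the last steps were all within 2-fold, CCoAOMT apart. C4H (cinnamate 4-hydroxylase, the next enzyme) has a strongly and a weakly expressed gene here, Sobic.002G126600, which shares its locus with another row, at 133 and 131 FPKM and Sobic.003G337400 at 2.05 and 2.11 FPKM. 4CL (Sobic.004G062500), which activates the acids with coenzyme A, was at 88.0 and 122 FPKM. HCT (Sobic.004G212300), which makes the shikimate esters, was at 91.8 and 126 FPKM. C3H (Sobic.009G181800), which hydroxylates those esters, was at 67.4 and 79.9 FPKM. The ratios of these 3 ran from 1.19 to 1.39. In the last steps, CCR (Sobic.007G141200, cinnamoyl-CoA reductase) was at 80.8 and 67.6 FPKM and CAD (Sobic.004G071000, which reduces the aldehydes to alcohols) at 43.9 and 57.7 FPKM. F5H (Sobic.001G196300), the branch to syringyl units, was at 5.45 and 5.97 FPKM. F5H had stood at 13.8 FPKM at FI and 18.4 at B, above both grain filling stages.

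The sucrose synthases, which cleave sucrose in the cytosol, did not share a direction. Sobic.001G378300 (chromosome 1, 66642502 to 66650446) was at 16.0 FPKM at FI, 20.7 at B, 71.1 at MS and 21.9 at SD, so that MS alone was high and SD lay 3.24-fold below it. Sobic.001G344500 was at 74.5 FPKM at MS and 119 at SD, and Sobic.010G072300, the most abundant of the family, at 371 and 441 FPKM. Both were within 2-fold. Vacuolar invertase (Sobic.004G004800, chromosome 4, 418238 to 423162), which splits sucrose inside the vacuole, was at 2.32 FPKM at FI, 9.61 at B, 8.79 at MS and 1.95 at SD. This 4.52-fold difference fell to -0.99 on the log2 scale with a pseudocount of 5 FPKM.

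Sucrose phosphate synthases make the phosphorylated precursor of sucrose, and all 5 listed genes were below their MS level at SD while within 2-fold of it. The most abundant, Sobic.009G233200, was at 34.6 FPKM at FI, 75.3 at B, 69.3 at MS and 35.6 at SD. Its MS level was 1.95-fold that at SD, the widest gap of the 5. Sobic.004G068400 was at 34.6 FPKM at MS and 25.1 at SD, and Sobic.003G403300 at 17.3 and 13.5 FPKM. Sobic.010G205100 was at 11.0 and 9.60 FPKM, and Sobic.005G089600 remained under 1 FPKM at both stages. The sucrose list as a whole had 9 measured genes, of which 0 were higher, 2 lower (4.27% of all genes were) and 7 within 2-fold, with a median of -0.34.

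Among the measured transporters, TST1 (Sobic.001G312900) and TST2 (Sobic.004G099300) had the largest differences. They were added to the list after their values were seen, so their rank may follow from that choice. Both sit in the tonoplast and exchange protons for sugar. TST1 was at 177 FPKM at FI, 269 at B, 261 at MS and 138 at SD. TST2 was at 129.6 FPKM at FI, 237 at B, 199 at MS and 91.0 at SD. Both had their lowest level at SD. TST2 passed 2-fold, at 2.18-fold lower, while TST1 lay 1.90-fold lower and passed 2-fold only after quantile normalization, at -1.07.

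The measured sucrose symporters and SWEET genes were within 2-fold. SUT1 (Sobic.001G488700), the sucrose and proton symporter of phloem loading and retrieval, was at 104 FPKM at MS and 145 at SD, its highest stage. SUT2 (Sobic.004G353600) was at 32.9 and 36.9 FPKM. SUT4 (Sobic.008G193300), which releases sucrose from the vacuole, was at 80.9 and 67.6 FPKM. The SWEET genes Sobic.008G094000 and Sobic.004G133500, whose proteins let sugars pass down their gradient, were at 125 and 22.2 FPKM at MS and 137 and 24.7 at SD. SUT3, SUT5 and SUT6 stayed under 1 FPKM at all 4 stages. Of the 10 listed transporters 7 were measured, of which 0 were higher, 1 lower and 6 within 2-fold, beside 6.47% higher and 4.27% lower of all genes. The 1 lower gene is TST2, which was added to the list after its values were seen. The list's median was 0.13 and its mean -0.20, which differ in sign.

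**Figure D2:**
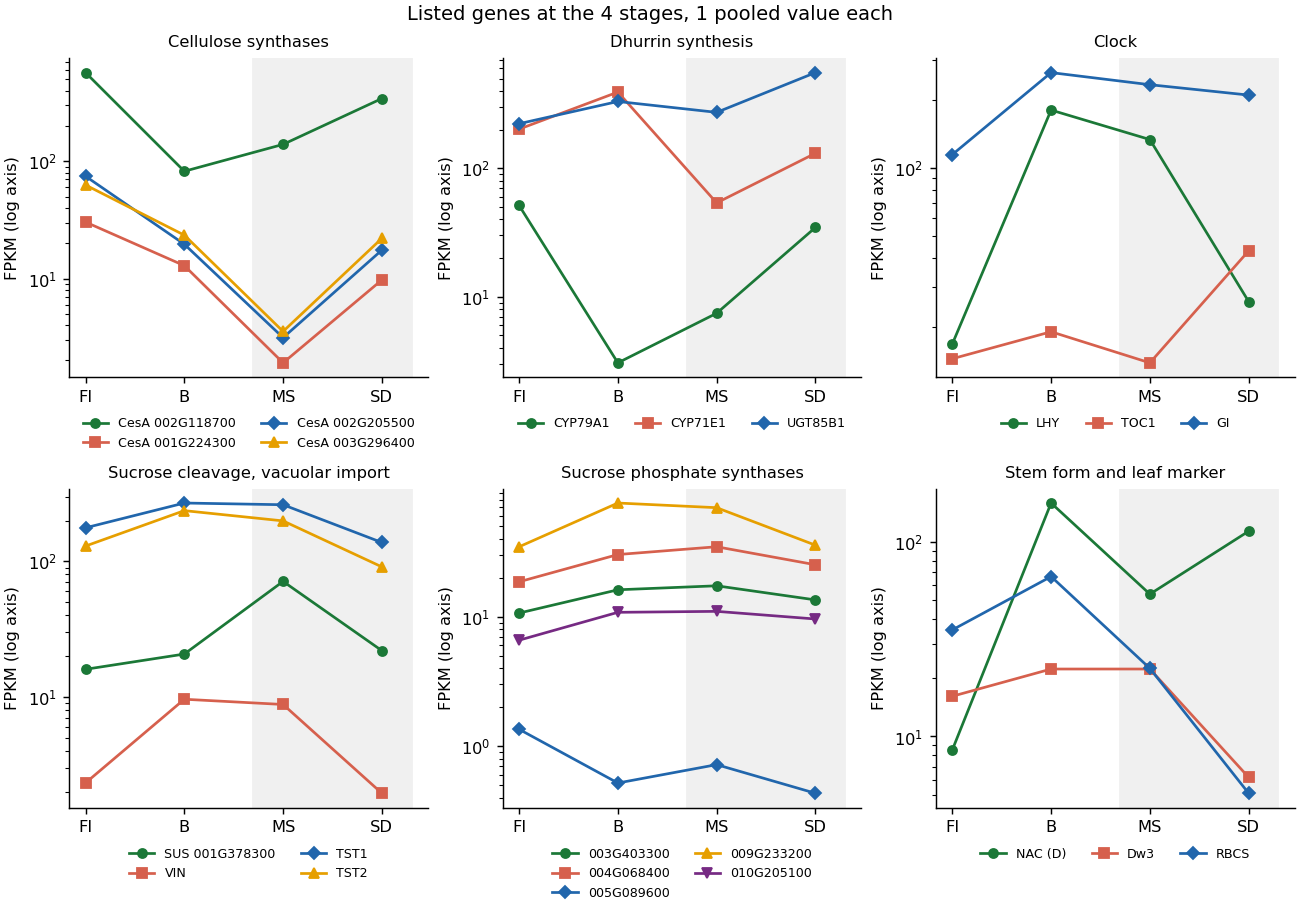
FPKM on a log axis at FI, B, MS and SD for 22 listed genes, with 1 pooled value per point and the compared stages shaded. The 3 secondary wall cellulose synthase genes have their lowest point at MS, LHY is high at B and MS, and TST1, TST2 and VIN are lowest at SD.

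Dhurrin is the cyanogenic glucoside of sorghum, made from tyrosine by CYP79A1, CYP71E1 and the glucosyltransferase UGT85B1, whose genes lie near each other on chromosome 1. CYP79A1 (Sobic.001G012300, 1144010 to 1146367) was at 51.4 FPKM at FI, 3.06 at B, 7.44 at MS and 34.6 at SD. CYP71E1 (Sobic.001G012200, 1048570 to 1050688) was at 202 FPKM at FI, 393 at B, 53.8 at MS and 131 at SD. UGT85B1 (Sobic.001G012400, 1152500 to 1153979) was at 223 FPKM at FI, 332 at B, 273 at MS and 557 at SD. All 3 were higher at SD than at MS, by 4.66-fold, 2.43-fold and 2.04-fold, beside 6.47% of all measured genes. The share was 12.9% among genes with loci of 114 to 2771 bases, the range in which these 3 lie. For UGT85B1 the log2 difference was 0.90 under quantile normalization and 0.88 when centred by locus length, both short of 2-fold. Across the 4 stages the 3 genes did not share a course, since CYP79A1 was lowest at B while CYP71E1 was highest there. In the pots CYP79A1 and CYP71E1 stayed under 1 FPKM in D1, D2 and D3, and UGT85B1 reached 4.17 FPKM in D3.

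Clock genes were among the larger differences of the lists. The morning gene LHY (Sobic.007G047400), a repressor of evening genes, was at 16.8 FPKM at FI, 180.1 at B, 134 at MS and 25.8 at SD. LHY shares its locus with another row. It was 5.17-fold lower at SD. The evening gene TOC1 (Sobic.004G216700), which represses LHY in turn, was at 14.4 FPKM at FI, 19.0 at B, 13.9 at MS and 43.2 at SD, 3.12-fold higher. GI (Sobic.003G040900, GIGANTEA, which links the clock to flowering) was at 233 and 209.7 FPKM, within 2-fold. LHY was thus high in the B and MS columns and low in FI and SD, while TOC1 was high in SD alone. The part of harvest time in this, or in any result here, was not tested.

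Of the stem form genes, Dw3 (Sobic.007G163800, chromosome 7, 59821904 to 59829921), which encodes an auxin transporter of the ABCB family and sets internode length, was at 22.2 FPKM at both B and MS and at 6.17 at SD. This is 3.60-fold lower and its lowest stage. Dw1 (Sobic.009G229800) was at 7.55 and 8.25 FPKM and Dw2 (Sobic.006G067700, a protein kinase gene) at 17.4 and 20.8 FPKM, both within 2-fold. Sobic.006G147400, the NAC transcription factor gene of the dry stalk locus, on which the juiciness of the stem depends, had 53.9 FPKM at MS and 113 at SD. It had been at 8.53 FPKM at FI and at 158 at B, above its SD level. Its 2.11-fold difference came to 0.97 on the log2 scale after quantile normalization. Phytochrome genes PHYB (Sobic.001G394400) and PHYC (Sobic.001G087100), which encode red light receptors, were within 2-fold, at 5.29 and 11.7 FPKM at MS and 6.50 and 11.6 at SD. The floral repressors PRR37 (Sobic.006G057866) and Ghd7 (Sobic.006G004400) stayed under 1 FPKM at all 4 stages.

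Over all these lists, markers apart, 10 of 42 measured genes were higher, 5 lower and 27 within 2-fold, beside 6.47% higher and 4.27% lower of all measured genes. The lists were chosen with earlier results of these data known, so this share is not a sample of the genome. TST2, which counts among the 5 lower genes, and TST1 were added after their values were seen.

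The genes that differed between MS and SD also differed in columns that the comparison did not use. Genes higher at SD tended to be high at FI and low at B, and genes lower at SD the reverse. Among the 1186 higher genes the medians were 13.1 FPKM at FI, 4.42 at B, 5.30 at MS and 19.2 at SD. Among the 783 lower genes they were 12.4, 19.3, 19.7 and 5.81 FPKM, and over all measured genes 9.90, 9.32, 9.17 and 9.25 FPKM. The MS and SD medians of both sets follow from the way they were chosen, but FI and B do not enter it.

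From FI to B the higher genes had a median log2 change of -0.90 and the lower genes one of 0.43, against -0.0047 over all genes. Of the higher genes 551 (46.5%) were at least 2-fold lower at B than at FI, against 17.5% of all measured genes. They make up 17.2% of all 3212 genes lower at B. Of the lower genes 245 (31.3%) were at least 2-fold higher at B, against 9.25% of all measured genes, and they make up 14.4% of the 1696 genes higher at B. Across the 18338 genes the SD minus MS and B minus FI changes, which share no column, had a Pearson's r of -0.29 and a Spearman's rho of -0.22. All stage columns come from 1 deposited table, and genes are not independent replicates.

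**Figure D3:**
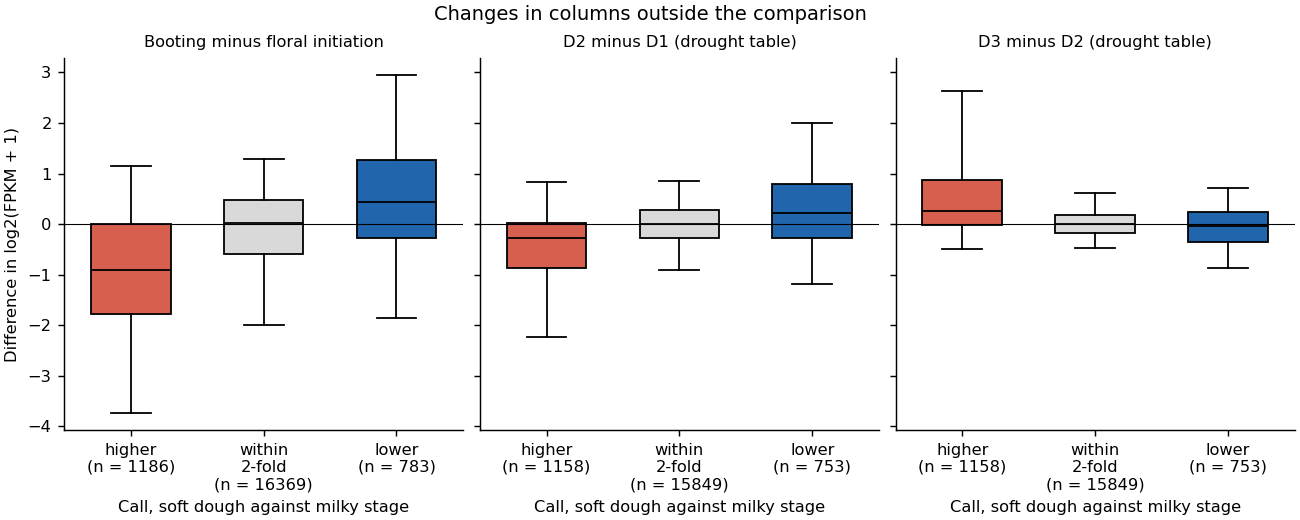
Changes in log2(FPKM + 1) from FI to B, from D1 to D2 and from D2 to D3 for genes called higher, within 2-fold or lower at SD against MS; boxes give the quartiles with the median as a line, and whiskers the 5th and 95th percentiles of genes. The higher genes have medians of -0.90, -0.27 and 0.27 in the 3 panels and the lower genes 0.43, 0.22 and -0.04.

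The drought table, taken as normalised on its own, gave further values for 17760 of these genes matched by name. From D1 to D2, 253 of the 1158 matched higher genes (21.8%) were at least 2-fold lower, against 5.3% of all matched genes, and they make up 26.9% of all genes lower in D2. Of the 753 matched lower genes 137 (18.2%) were at least 2-fold higher in D2, against 3.93%, and they make up 19.6% of all genes higher there. From D2 to D3, 261 of the higher genes (22.5%) were at least 2-fold higher, against 3.33%, which is 44.1% of all genes higher in D3. Of the lower genes 28 (3.72%) were lower in D3, against 0.783%. Of the higher genes 24 (2.07%) were lower there as well, so both sets lay above the share of all matched genes. These pot columns share no sample with MS or SD, while the D2 column enters both of these contrasts. From D1 to D3, which leaves D2 out, 157 of the higher genes (13.6%) were higher and 93 (8.03%) lower, against 4.38% and 2.95% of all matched genes. Of the lower genes 98 (13.0%) were higher and 41 (5.44%) lower from D1 to D3. The share higher in D3 than in D1 was thus nearly the same for both sets, and their medians were 0 for the higher and 0.23 for the lower genes. LHY was at 7.28 FPKM in D1, 40.1 in D2 and 26.0 in D3, and TOC1 at 117, 51.6 and 74.1 FPKM. Moisture, time since watering stopped and any difference in harvest time between pots cannot be told apart.

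Locus length, the distance from start to end in the file with introns included, moved with the call. The median was 2769 bases for higher genes, 3997 for lower genes and 4511 for genes within 2-fold. The genes were split by locus length into 4 classes of nearly equal number. In the class of shortest loci (114 to 2771 bases) 12.9% of genes were higher and 5.21% lower. In the class of longest loci (6980 to 433727 bases) 3.18% were higher and 3.71% lower. The median change was 0.14 in the shortest class and -0.06 in the longest, and from FI to B these classes had medians of -0.34 and 0.16. With only genes averaging 5 FPKM or more, and the classes drawn anew, the share of higher genes was 14.6% in the shortest and 3.18% in the longest class. Its part in the results was not tested beyond the values that follow.

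**Figure D4:**
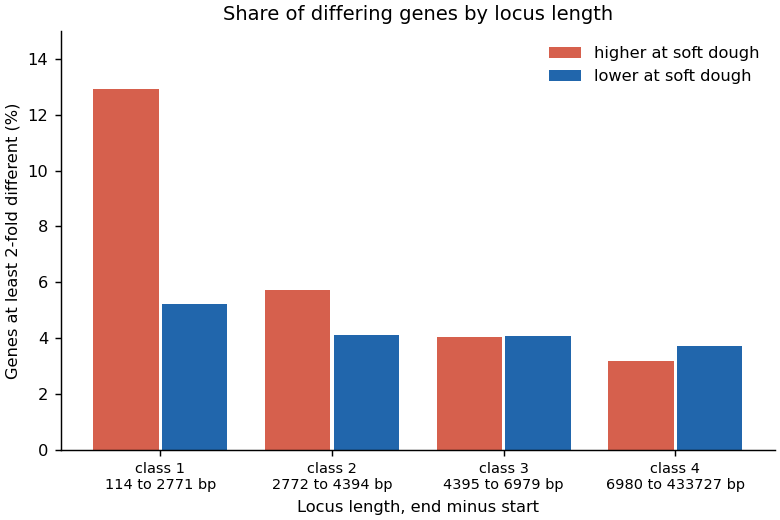
Percent of measured genes at least 2-fold higher (red) or lower (blue) at SD than at MS, in 4 classes of locus length. Higher genes make up 12.9% of the shortest class and 3.18% of the longest, while lower genes run from 5.21% to 3.71%.

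Within each class of locus length more of the higher genes than of all genes were lower at B than at FI. At least 2-fold lower at B than at FI were 54.1% of the higher genes in the shortest class, against 29.9% of all measured genes there. In the longest class the shares were 43.8% and 11.1%. Centring every gene on the median change of its class left 1067 higher and 824 lower genes.

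Along the chromosomes the differing genes were spread widely, with some stretches of neighbours that were all higher. The share of higher genes ran from 4.37% of the measured genes on chromosome 8 to 8.38% on chromosome 9, and that of lower genes from 3.83% on chromosome 8 to 5.15% on chromosome 7. Of 1140 higher genes with a next measured gene that did not overlap them, 120 (10.5%) were followed by another higher gene, against 6.47% of all genes. Of 742 lower genes 53 (7.14%) were followed by another lower gene, against 4.27%. There were 5 stretches of at least 4 consecutive measured rows called in the same direction, 4 of them higher and 1 lower. Neighbouring copies of a gene can share reads, and how the authors counted such reads is not given.

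The longest stretch held 5 rows on chromosome 6 (4498652 to 4678325). In their order along the chromosome the levels at MS were 2.21, 1.08, 0, 2.78 and 5.48 FPKM, and at SD 42.0, 14.7, 1.72, 82.5 and 35.5 FPKM. All 5 were at or below 0.422 FPKM at B, and at FI they had been at 15.8, 143, 2.28, 496 and 104 FPKM. The fourth row is Sobic.006G025900, which had the largest log2 increase among the ranked genes below, and the second row holds 3 gene models that share their locus with another row. Under drought D3 stood out for this gene, which was listed at 0 in D1, had 0.0431 FPKM in D2 and reached 439 FPKM in D3. The last row of the stretch had 0.00960, 0.0239 and 122 FPKM in the pots. The table used here does not pair the identifiers of this stretch with gene names.

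A second stretch of 4 rows on chromosome 7 (8904277 to 8924806) was expressed at every stage. Its levels were 47.4, 98.3, 49.5 and 40.3 FPKM at MS and 152, 237, 140.0 and 144 FPKM at SD, between 2.41-fold and 3.57-fold higher. At B they were at 28.7, 40.2, 14.7 and 7.85 FPKM, the lowest stage for all 4. In D1, D2 and D3 the first of them was at 21.4, 3.73 and 72.0 FPKM, and the other 3 also had their lowest value in D2 and their highest in D3. On chromosome 9 (3586154 to 3606537) 4 rows went from 2.54, 1.21, 27.9 and 4.31 FPKM at MS to 8.33, 4.58, 150.1 and 38.5 at SD.

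The fourth higher stretch, 4 rows on chromosome 10 (54280300 to 54406166), did not have the high FI and low B levels of the other 3. In order its levels were 1.41, 11.9, 1.60 and 0.836 FPKM at MS and 4.55, 57.6, 4.66 and 3.74 FPKM at SD. At FI they were 1.53, 5.71, 0.901 and 0.0232 FPKM and at B 0.820, 7.77, 0.940 and 0 FPKM. SD was the highest stage for all 4, and in the pots the first 3 were highest in D1, at 12.3, 15.2 and 1.54 FPKM, against 2.89, 4.43 and 0.828 FPKM in D3. The third of these rows shares its locus with another. The 4 rows of the lower stretch on chromosome 3 (43230868 to 44929850) ran from 2.198 to 20.2 FPKM at MS and stood in order at 0.755, 6.81, 0.204 and 4.22 FPKM at SD, their lowest stage. At FI they had been at 3.13, 12.4, 3.07 and 267 FPKM and at B at 0.962, 19.6, 3.82 and 25.2 FPKM, so they shared no course before MS.

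**Figure D5:**
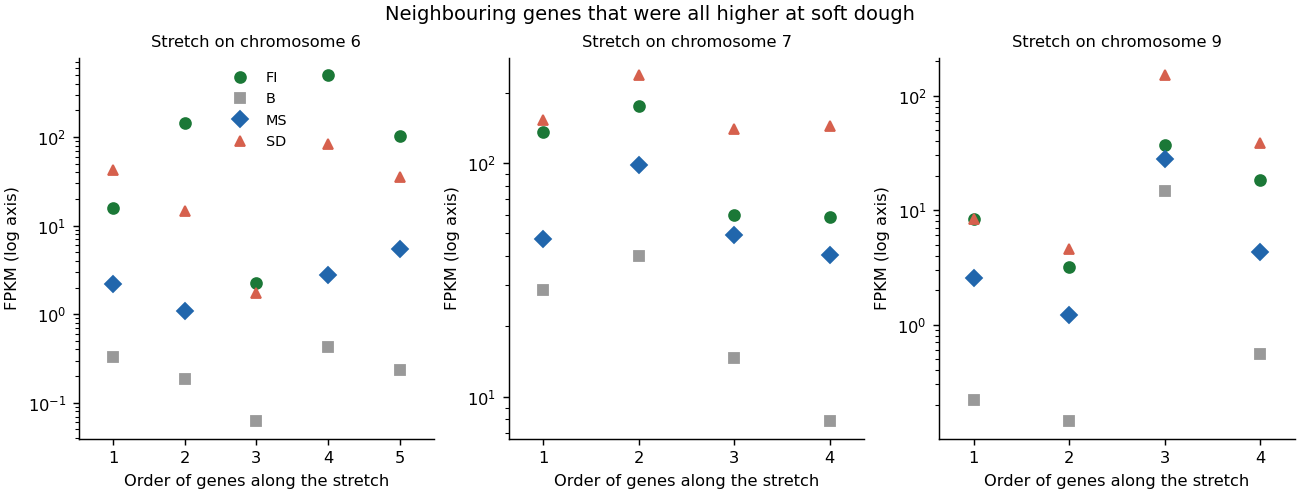
FPKM on a log axis of neighbouring genes, in their order along 3 stretches on chromosomes 6, 7 and 9, with 1 pooled value per stage and a value of 0 not drawn. In every stretch the SD point of each gene lies above its MS point, and the B point lies below both, except for the third gene on chromosome 6, whose MS value is 0.

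The largest log2 changes were ranked among rows with 1 gene model, above 0 at both stages and at least 5 FPKM at the higher stage. The 12 largest increases were between 11.2-fold and 36.0-fold, from MS levels of 0.459 to 19.1 FPKM. All 12 were at least 2-fold lower at B than at FI, beside 17.5% of all measured genes. Their medians were 34.0 FPKM at FI and 0.377 at B. Sobic.006G025900 (chromosome 6, 4669311 to 4670061) went from 2.78 to 82.5 FPKM, and Sobic.002G416600 (chromosome 2, 76400758 to 76402443) from 3.87 to 97.1 FPKM. The latter had been at 10.6 FPKM at FI and 0.927 at B, and did not pass 1.20 FPKM in the pots.

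The 12 largest decreases were between 10.6-fold and 48.8-fold, and MS was the highest of the 4 stages for 6 of them. The ranking itself favours MS, which was also the highest stage for 368 of all 783 lower genes. From FI to B 4 of the 12 were at least 2-fold higher and 2 lower, beside 9.25% higher and 17.5% lower of all measured genes. Sobic.009G234600 (chromosome 9, 57389227 to 57390570) was at 92.7 FPKM at FI, 178 at B, 62.6 at MS and 1.28 at SD. In the pots it stood at 546, 2474 and 2172 FPKM in D1, D2 and D3. Sobic.001G334501 (chromosome 1, 62342118 to 62343997) was at 9.54 FPKM at FI, listed at 0 at B, and at 55.0 and 1.54 FPKM at MS and SD. Neither has a gene name in the table used here.

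SD was the highest of the 4 stages for 871 of the 1186 higher genes, FI for 284 and B for 31. MS was the highest for 368 of the 783 lower genes, B for 257 and FI for 158. Most of the higher genes were thus above their FI level at SD, while the lower genes were divided among the 3 earlier stages. By the way the sets were chosen, MS could not be highest for a higher gene, nor SD for a lower gene. The choice also favours SD in the higher set and MS in the lower set. The same counts over all measured genes are not given.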

How the data were processed

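Per the labels' protocols, middle internode RNA was extracted with trizol and sequenced as strand-specific libraries (TruSeq). The authors deposited FPKM, per the file headers, as 1 value for each gene and group. Neither the genome build nor the way in which the 2 samples of a group became 1 value is given in the sources used here. HISAT2 2.0.5, Bowtie2 2.2.9, cutadapt 1.8.1 and Cuffdiff appear in the submitters' processing notes, with no role. FPKM keeps no read count, so depth and precision are unknown.

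From the deposited FPKM, 34755 rows of the development table were read and 2003 without a gene name set apart. Of the measured rows 1136 hold several gene models and 3034 share a locus with another row. The drought table was taken as normalised separately, and its values are compared only within it. Changes used a pseudocount of 1 FPKM. limma, planned for the case of a value per sample, was not run. There were 0 unused value columns. The code was tested on simulated data.

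The comparison and its gene lists were chosen with earlier results of these data known. Lists hold identifiers whose names come from published work, since the reference table does not pair identifiers with descriptions, and list members to be found by description were not included. TST1 and TST2 were added after their values were seen. Described were all listed genes, the 2 largest changes in each direction among the 12 ranked, and the 5 most abundant genes of each stage, of which those that passed 2-fold are given by their coordinates alone. A listed gene of the lignin pathway is not reported here.

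Alternatives were a pseudocount of 0.1 or 5 FPKM, dropping the filter, requiring a mean of 5 FPKM, rescaling by median ratios, quantile normalization, leaving out rows with several models or shared loci, and centring by locus length, the last chosen after seeing the data. The work used numpy 2.4.6, pandas 2.3.3 and matplotlib 3.10.9 under Python 3.11.15.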

Additional observations from a re-analysis of the deposited data

Results flagged for a closer look

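Rows without a gene name stand outside the comparison. Of 1044 measured ones 6.23% were higher and 4.41% lower, near the 6.47% and 4.27% of named genes. Among the 218 of them with at least 10 FPKM at MS or SD, 23 were at least 2-fold higher at SD and 19 at least 2-fold lower, which is 10.6% and 8.72% of rows picked by their level in the compared columns. The largest increase (chromosome 8, 15298415 to 15300054) went from 5.72 to 95.6 FPKM and has the same locus as a named gene that was also higher. The largest decrease (chromosome 3, 6108565 to 6110614) went from 71.7 to 8.84 FPKM.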

How the results depend on the processing

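With a pseudocount of 0.1 FPKM 1963 of 18338 genes were higher and 1249 lower at SD, and 16.1% of higher genes were followed by another higher gene. The share of higher genes among all genes also rose with this pseudocount, so 16.1% cannot be set against the reported 6.47%. With a pseudocount of 5 FPKM 595 were higher and 362 lower. Under the other 6 alternatives these counts stayed within 1.5 times the reported ones. Dropping the filter could not change which genes were called, since a call needs at least 1 FPKM at MS or SD. Under all 8 alternatives the share of higher genes at least 2-fold lower at B than at FI lay between 44.7% and 54.1%, and the share of lower genes higher at B between 26.3% and 38.1%. For the pseudocounts of 0.1 and 5 FPKM and for centring, only the calls at SD against MS were varied. The change from FI to B kept its reported form there. Dropping the filter, requiring a mean of 5 FPKM and leaving out rows only choose rows and leave a gene's own value as it was. Under them the call of a listed gene was therefore fixed in advance. Of 45 measured listed genes 39 had a value in all 8 alternatives, and 34 of these had the same call in each. The other 5 (vacuolar invertase, TST1, UGT85B1, CCoAOMT and the NAC gene) are given with their values above. A further 6 had the same call in the 7 alternatives that held them. Of these 2 (Sobic.005G089600 and Sobic.003G337400) fell under a mean of 5 FPKM, and 4 (LHY, PAL, Sobic.002G126600 and the NADP malic enzyme row) were left out with shared loci. No paired analysis was possible because each group has 1 pooled value, and leaving out a replicate could not be run for the same reason. Depth is unknown, so the precision of low values cannot be given.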

Other observations

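Of the genes among the 5 most abundant at either stage, 5 were within 2-fold. Sobic.001G141300 (chromosome 1, 11339408 to 11340551) was at 19971 FPKM at FI, 10536 at B, 9873 at MS and 12979 at SD, and in the pots was listed at 0 in D1 but at 23987 in D2 and 19778 in D3. Sobic.001G012500, which lies beside UGT85B1 on chromosome 1 (1169606 to 1171177), was at 2414 FPKM at FI, 1095 at B, 9283 at MS and 5598 at SD, and at 236, 4814 and 1542 FPKM in D1, D2 and D3. Unlike the 3 dhurrin genes it was within 2-fold from MS to SD and lower at SD. Sobic.004G006300 was at 5621 and 4209 FPKM, Sobic.008G185900 at 3188 and 5042 FPKM and the row of Sobic.003G397500 and Sobic.003G397600 at 4478 and 3245 FPKM. A row on chromosome 1 (12370478 to 12374638) was at 5494 and 2656 FPKM, 2.07-fold lower.

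A row listed at 0 can be a failed estimate. A row on chromosome 2 (69501545 to 69504021) was at 12502 FPKM at FI, listed at 0 at B and MS, and at 13868 FPKM at SD, the highest value of that stage, and in the pots at 6377, 15546 and 12777 FPKM. It is among the 1186 higher genes, 6 of which were listed at 0 at MS. A row on chromosome 4 (7313252 to 7315610) was at 37.8 FPKM at MS and listed at 0 in the other 6 columns. It is among the 783 lower genes, 3 of which were listed at 0 at SD.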
